A study of Mus musculus with 50 samples.

Results

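The genes described here are 10 regulators of G-protein signaling (Rgs2, Rgs3, Rgs4, Rgs5, Rgs10, Rgs12, Rgs16, Rgs17, Rgs19 and Rgs20) in mouse colon cells carrying mutant p53, activated Ras or both. They were taken as every probe set (the group of short probes that reports a transcript on the array) whose only gene symbol in the platform annotation was one of these names. That gave 29 probe sets out of 45037 with values, for 10 of 18193 genes. Polysomal RNA, the mRNA bound to ribosomes, was recovered from sucrose gradients and hybridised to 50 Affymetrix mouse genome arrays, 10 for each of 5 cell populations. All populations derive from YAMC (young adult mouse colon) cells of the Immorto mouse, H-2Kb/tsA58, which carry a temperature-sensitive SV40 large T antigen under an interferon-γ-inducible promoter. The mp53/Ras population received retroviruses for p53175H and RasV12, the Ras population the Bleo vector and RasV12, the mp53 population p53175H and the Neo vector, the bleo/Neo population both empty vectors, and the YAMC population is the parental line. Before harvest, cells of every population were held at 39 °C without interferon γ for 48 h and then for 24 h in 0% serum, below confluence. The infected populations are polyclonal, and each was made once. The labels number the replicates without saying that they were separate cultures, so p-values measure the spread between these arrays only.

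RGS proteins bind the active, GTP-loaded α subunits of heterotrimeric G proteins and speed up GTP hydrolysis, which shortens signaling from G-protein-coupled receptors. Different RGS proteins act on different α subunits: those of the Gi class, of the Gq class, or both. Several RGS genes are themselves induced when the receptor pathways they dampen are active, so that they serve as negative feedback. Most are small proteins with little beyond the RGS domain, and Rgs12 is a large exception with further binding domains.

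Intensities are given on the log2 scale, where 1 unit is 2-fold. A probe set counted as bright when 10 or more of the 50 arrays exceeded 6.44, the median of all values. The lowest value in the table was 3.04. The table carries no detection calls. Bright probe sets were found for Rgs3, Rgs10, Rgs12, Rgs16, Rgs19 and Rgs20, which were therefore 6 of the 12883 genes tested, each through its probe set of highest mean. All 13 probe sets of Rgs2, Rgs4, Rgs5 and Rgs17 were dim, and for these a second fit of all 34945 probe sets with 1 gene symbol, without any filter, was added after the values had been seen. Differences carry the standard error of the limma fit (±, n = 10 arrays per population) and its Benjamini-Hochberg adjusted p, and a difference was called at an adjusted p under 0.05. Intensity of polysomal RNA depends on transcript abundance and ribosome loading together, and in such bulk samples fewer cells of a type and less RNA per cell cannot be told apart. The number of arrays limits the precision.

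Of the 50 arrays, 47 lay nearest the mean of their own population, and the exceptions were the arrays labelled Ras 10 (nearest mp53), mp53 8 (nearest YAMC) and mp53 10 (nearest Ras). Eif2s3y, Kdm5d and Uty, which lie on the Y chromosome, were lower on all 10 bleo/Neo arrays than on the 40 others. Of 10 epithelial markers 6 or 7 had a group mean above 6.44, among them the keratins Krt8 (group means 11.75 to 12.94) and Krt18 (10.54 to 12.67) and Epcam (8.07 to 8.41), whereas Cdh1 (3.95 to 4.31) and Vil1 (5.24 to 5.58) were dim. Of 8 fibroblast markers 4 were above it in every population, among them Col1a1 (12.40 to 13.29), while Pdgfra (6.05 to 6.29) and Thy1 (5.16 to 5.32) were dim. Col1a2 averaged 8.68 in bleo/Neo cells and 12.08 to 13.30 in the other populations. Of 12 pericyte and smooth muscle markers 7 to 9 were above 6.44, among them Acta2 (13.13 to 13.97). Of 5 immune markers 3 were above it (Cd68, Csf1r and Cd3e), with Ptprc dim (5.39 to 5.54), and of 6 endothelial markers 1 or 2, with Kdr at 7.08 to 7.99 and Cdh5 dim (5.33 to 5.50). Of 6 neural markers 0 to 2 were above it.

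Rgs2 showed the widest difference among the 10 genes and was highest when mutant p53 and activated Ras were present together. Rgs2 is a small RGS protein that preferentially inhibits Gq signaling. On the probe set 1419248_at the mp53/Ras arrays ran from 5.86 through a median of 6.43 to 6.57, and their mean was 6.37 ± 0.21 (SD, n = 10). The Ras arrays lay between 4.54 and 5.29 with a median of 4.87, and the mp53 arrays between 4.25 and 4.71 with a median of 4.43. Without an oncogene, the bleo/Neo arrays lay between 4.27 and 4.63 (median 4.55) and the YAMC arrays between 4.26 and 4.64 (median 4.56). Every mp53/Ras array was therefore above all 40 other arrays, while the Ras arrays overlapped the remaining 3 populations. Such separation was found for 12.8% of all probe sets between mp53/Ras and bleo/Neo cells, for 8.69% between mp53/Ras and mp53 cells, for 4.45% between mp53/Ras and Ras cells and for 11.7% between mp53/Ras and YAMC cells. In the order of the levels, the mp53, bleo/Neo and YAMC populations did not differ beyond their spread.

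The rise of Rgs2 in mp53/Ras cells on this probe set was 1.86 ± 0.08 against bleo/Neo, or 3.64-fold (limma adjusted p = 1.54e-25). Against mp53 cells it was 1.94 (adjusted p = 4.60e-25) and against YAMC cells 1.88 (adjusted p = 1.19e-24). Against Ras cells it was 1.50 (adjusted p = 1.74e-20), the rank 12 among the rises of all 34945 probe sets in that comparison. Ras cells alone were higher than bleo/Neo by 0.37 (adjusted p = 0.00023), and mp53 cells differed by -0.07 (adjusted p = 0.510). The non-additive term, which is mp53/Ras minus mp53 minus Ras plus the control population on the log2 scale, was 1.57 ± 0.11 with bleo/Neo as control (adjusted p = 5.03e-16) and 1.55 with YAMC (adjusted p = 4.83e-15). A positive term means that the combined population exceeded the sum of the log2 differences of the single ones. Since the levels in the other populations are close to the bottom of the table, background signal may limit how large a difference could be measured, and adding 16 to every intensity before the logarithm lowered the difference from bleo/Neo to 1.35.

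The other Rgs2 probe sets moved less. On 1419247_at the mp53/Ras arrays ran from 5.50 to 6.54 (median 6.14), the Ras arrays from 5.44 to 5.89 (median 5.79) and the mp53 arrays from 4.72 to 5.59 (median 5.41). The bleo/Neo arrays ran from 4.70 to 5.47 (median 5.29) and the YAMC arrays from 4.51 to 5.41 (median 5.21). The mp53/Ras arrays were clear of the bleo/Neo arrays (as for 12.8% of all probe sets) and of the YAMC arrays (as for 11.7%). They overlapped the Ras and mp53 arrays. Here Rgs2 rose by 0.83 in mp53/Ras cells (adjusted p = 2.25e-08) and by 0.52 in Ras cells (adjusted p = 0.00023), both against bleo/Neo, and by 0.31 in mp53/Ras against Ras cells (adjusted p = 0.0353). That last call was lost without the arrays labelled mp53 10 and Ras 10 (0.28, adjusted p = 0.0738), and the non-additive term of 0.22 did not pass (adjusted p = 0.336). On 1447830_s_at, the Rgs2 probe set of highest mean, the rise in mp53/Ras cells was 0.49 against mp53 and 0.40 against YAMC, and the non-additive term was 0.54. Its mean was 6.36 in mp53/Ras, 6.13 in bleo/Neo and 6.08 in Ras cells. The arrays of these populations overlapped (5.66 to 6.84, 5.31 to 6.68 and 5.72 to 6.61). On 1443250_at the one call was a fall by 0.16 in mp53 against bleo/Neo. The rise in mp53/Ras against YAMC cells was called on 3 of the 4 Rgs2 probe sets (26.9% of all probe sets were called higher there), while the size of the non-additive term depended on the probe set.

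Rgs17 had the second clear rise in mp53/Ras cells. Rgs17, also called RGSZ2, belongs with Rgs19 and Rgs20 to the RZ subfamily, whose members act on Gz and Gi α subunits. On the probe set 1450693_at the mp53/Ras arrays ran from 5.71 through a median of 6.05 to 6.31. The Ras arrays ran from 4.95 to 5.33 (median 5.20) and the mp53 arrays from 4.71 to 5.26 (median 4.97). The bleo/Neo arrays ran from 5.02 to 5.49 (median 5.32) and the YAMC arrays from 4.57 to 5.30 (median 4.86). All 10 mp53/Ras arrays were above the 40 others, and the other 4 populations overlapped one another. Of all probe sets, 12.8% were so separated between mp53/Ras and bleo/Neo cells, and 8.69% between mp53/Ras and mp53 cells. The shares were 4.45% between mp53/Ras and Ras cells and 11.7% between mp53/Ras and YAMC cells.

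Against mp53 cells, Rgs17 was 2.04-fold higher in mp53/Ras cells (log2 difference 1.03 ± 0.07, adjusted p = 4.18e-16). The corresponding log2 differences were 1.13 against YAMC (adjusted p = 6.86e-18), 0.83 against Ras (adjusted p = 1.75e-12) and 0.70 against bleo/Neo (adjusted p = 1.78e-11). Mutant p53 alone went with a fall by 0.32 against bleo/Neo (adjusted p = 0.00046), and Ras alone with a difference of -0.12 that did not pass (adjusted p = 0.181). The vector population was itself 0.43 above the parental cells (adjusted p = 7.79e-06). The non-additive term for Rgs17 was 1.15 ± 0.10 on the bleo/Neo baseline (adjusted p = 1.26e-12) and 0.73 on the YAMC baseline (adjusted p = 8.29e-07). Its second probe set, 1439779_at, had group means between 4.46 and 4.68 and no call in any comparison.

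**Figure D1:**
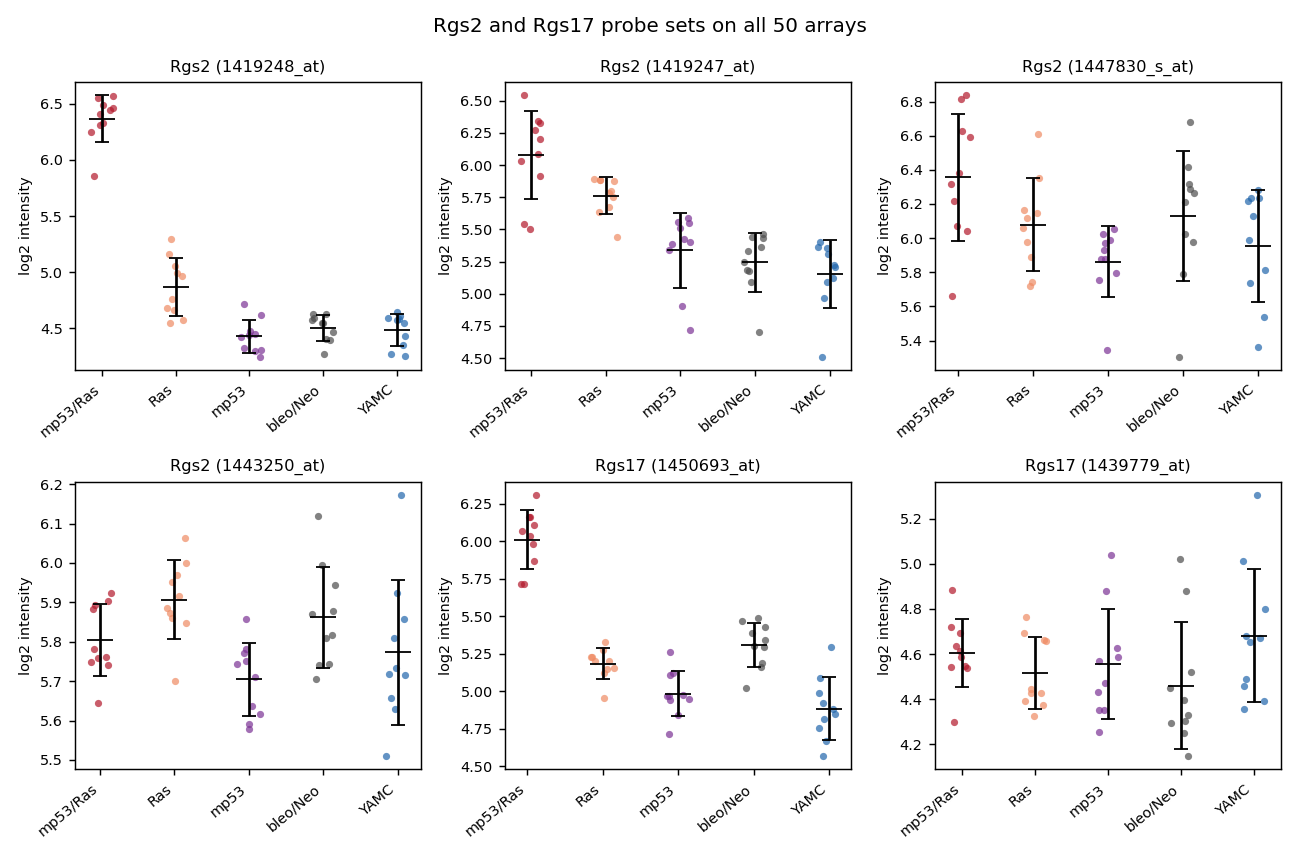
Log2 intensity on each of the 50 arrays for the 4 probe sets of Rgs2 and both of Rgs17, 1 panel each, by population, with black bars for the mean ± SD. On 1419248_at (Rgs2) and 1450693_at (Rgs17) the 10 mp53/Ras arrays lie above all 40 others, with lowest values of 5.86 and 5.71.

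On the linear scale of the deposited intensities, the mean of the Rgs2 probe set 1419248_at was 83.3 in mp53/Ras, 29.7 in Ras, 21.7 in mp53, 22.8 in bleo/Neo and 22.5 in YAMC cells. On this probe set the mp53 and Ras means together came to 0.616 of the mp53/Ras mean. On the other Rgs2 probe sets this ratio was above 1, at 1.38 (1419247_at), 1.51 (1447830_s_at) and 2.01 (1443250_at). For Rgs17 on 1450693_at the means were 65.0, 36.4, 31.8, 39.8 and 29.8 in the same order. There the mp53 and Ras means together came to 1.05 of the mp53/Ras mean, and on 1439779_at to 1.92 of it. These sums contain the background signal of both single populations.

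The start regions of the pair that was highest in the combined population are shown for reference, from RefSeq on build GRCm38.p6, with 250 bases before and 50 after the annotated start. Capitals mark matches on either strand to any of 5 motifs. A CRE was searched as TGACGTCA. An AP-1 site was searched as TGANTCA. The CCAAT box was searched by the letters of its name. A GC box was searched as GGGCGG. The TATA motif was searched as TATAAA. Rgs2 lies on the minus strand of chromosome 1 (chr1:144004100-144004399) and Rgs17 on the minus strand of chromosome 10 (chr10:5922351-5922650).
Rgs2: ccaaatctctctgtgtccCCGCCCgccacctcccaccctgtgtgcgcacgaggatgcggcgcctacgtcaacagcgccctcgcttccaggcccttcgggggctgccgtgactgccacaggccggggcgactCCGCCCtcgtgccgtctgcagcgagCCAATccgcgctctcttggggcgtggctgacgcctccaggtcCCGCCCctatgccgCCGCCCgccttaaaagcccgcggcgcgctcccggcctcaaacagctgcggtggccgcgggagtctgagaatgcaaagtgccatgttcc
Rgs17: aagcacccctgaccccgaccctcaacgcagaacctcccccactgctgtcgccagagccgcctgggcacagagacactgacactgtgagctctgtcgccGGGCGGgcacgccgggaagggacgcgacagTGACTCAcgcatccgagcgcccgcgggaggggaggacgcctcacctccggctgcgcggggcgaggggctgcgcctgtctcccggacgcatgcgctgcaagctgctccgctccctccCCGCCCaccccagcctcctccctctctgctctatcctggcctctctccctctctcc
The Rgs2 window held 4 GC boxes and 1 CCAAT box, and the Rgs17 window held 2 GC boxes and 1 AP-1 match. Among 32851 promoters of the same length a GC box occurred in 35.7%, a CCAAT box in 37.4%, an AP-1 match in 7.81%, the TATA motif in 13.6% and a CRE in 1.79%. Both windows were rich in G and C (70% for Rgs2 and 71% for Rgs17, against a median of 52.7% over all promoters) and in CpG dinucleotides (33 and 27, against a median of 7). This was not particular to the pair: Rgs10 (76% and 34) and Rgs16 (66% and 22) had such windows too. Those of Rgs4 (53% and 13) and Rgs5 (52.3% and 6) were nearer the medians. The table held windows for 9 of the 10 genes. These matches are letters in a window and were not set against any binding data.

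Among the bright genes, Rgs20 differed most between populations, and its pattern was a low level in mp53 and YAMC cells. Rgs20, also called RGSZ1, is a Gz-selective member of the RZ subfamily. On 1443694_at the mp53/Ras arrays ran from 9.64 through a median of 9.91 to 10.04, and the Ras arrays from 9.38 through 9.94 to 10.15. The mp53 arrays ran from 8.29 through 8.91 to 9.86. The bleo/Neo arrays ran from 9.45 through 9.65 to 9.80 and the YAMC arrays from 8.69 through 9.05 to 9.51. The mp53/Ras arrays were clear of the YAMC arrays, as for 16.1% of all tested genes, and the mp53/Ras, Ras and bleo/Neo arrays overlapped.

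Rgs20 fell by 0.75 ± 0.12 in mp53 cells against bleo/Neo (limma adjusted p = 1.53e-06). It was higher by 0.99 in mp53/Ras than in mp53 cells (1.98-fold, adjusted p = 2.83e-09) and differed by 0.01 between mp53/Ras and Ras cells (adjusted p = 0.970). Against YAMC cells it was higher by 0.85 in mp53/Ras (adjusted p = 5.07e-08), by 0.84 in Ras (adjusted p = 1.53e-07) and by 0.62 in bleo/Neo (adjusted p = 5.03e-05). The mp53 and YAMC populations did not differ beyond their spread (-0.13, adjusted p = 0.455). The non-additive term was 0.76 ± 0.17 on the bleo/Neo baseline (adjusted p = 0.000626) and 0.14 on the YAMC baseline (adjusted p = 0.653), so that its call depends on which control population is used. The second bright probe set of Rgs20, 1421493_a_at, gave -0.58 in mp53 against bleo/Neo and 0.66 in mp53/Ras against mp53, both called, and the third, 1446199_at, was dim (group means 5.18 to 5.31) and had no call.

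The array labelled mp53 10 read 9.86 for Rgs20, above the other 9 mp53 arrays (8.29 to 9.31), and the array labelled Ras 10 was the lowest of its population at 9.38. Without these arrays the fall in mp53 cells was 0.86 on the log2 scale (difference -0.86, adjusted p = 1.26e-09). Their removal also brought the differences of Rgs20 from bleo/Neo past the threshold in mp53/Ras cells (0.23, adjusted p = 0.0437, against 0.102 with all arrays) and in Ras cells (0.28, adjusted p = 0.0234, against 0.140 with all arrays).

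Rgs19, also called GAIP, is the third RZ member and acts on Gi-class α subunits. On 1417786_a_at its mp53/Ras arrays ran from 10.70 to 11.08 (median 10.86), its Ras arrays from 10.38 to 10.77 (median 10.57) and its mp53 arrays from 9.86 to 10.80 (median 10.49). The bleo/Neo arrays ran from 10.35 to 11.07 (median 10.76) and the YAMC arrays from 9.98 to 10.64 (median 10.41). Every mp53/Ras array was above every YAMC array, a separation found for 16.1% of all tested genes, and the other populations overlapped the mp53/Ras range. Rgs19 was higher in mp53/Ras cells than in YAMC by 0.51 ± 0.09 (adjusted p = 2.90e-06), than in mp53 by 0.38 (adjusted p = 0.000345) and than in Ras by 0.26 (adjusted p = 0.0256). It fell in mp53 cells by 0.26 against bleo/Neo (adjusted p = 0.0184), a call that was lost with only those populations in the fit (adjusted p = 0.0733) or with the mean of the bright probe sets (-0.21, adjusted p = 0.0919). Also, bleo/Neo cells were 0.39 above YAMC (adjusted p = 0.000458). The non-additive term was 0.52 ± 0.13 on the bleo/Neo baseline (adjusted p = 0.00132) and 0.14 on the YAMC baseline (adjusted p = 0.532). The second bright probe set, 1434940_x_at, was called for the rises above YAMC in mp53/Ras (0.52), Ras (0.35) and bleo/Neo (0.47) and for no difference between oncogene populations or from bleo/Neo.

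The 3 RZ genes have 7 probe sets in all. In the fit of all probe sets, 4 of the 7 fell in mp53 cells against bleo/Neo (2 of Rgs20 and 1 each of Rgs17 and Rgs19), where 17.7% of all probe sets were called lower. The other 3 were not called in that comparison. In mp53/Ras against mp53 cells 4 of the 7 were higher (21.3% of all), and in bleo/Neo against YAMC cells 5 of the 7 were higher (18.4% of all). These comparisons share the mp53 or the bleo/Neo arrays, and probe sets of 1 gene are not independent.

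Rgs12, the large multidomain member with a GoLoco motif and Ras-binding domains, was lower where mutant p53 was present. On 1453129_a_at the mp53/Ras arrays ran from 9.60 through a median of 9.88 to 10.20, and the mp53 arrays from 9.51 through 9.82 to 10.56. The Ras arrays ran from 9.89 through 10.64 to 10.94. The bleo/Neo arrays ran from 10.09 through 10.22 to 10.97 and the YAMC arrays from 9.87 through 10.32 to 10.76. The lowest Ras value belonged to the array labelled Ras 10, and the other 9 Ras arrays (10.53 to 10.94) were above all mp53/Ras arrays.

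Against bleo/Neo, Rgs12 fell by 0.43 ± 0.13 in mp53/Ras cells (limma adjusted p = 0.00335) and by 0.42 in mp53 cells (adjusted p = 0.00807). Against YAMC the falls were also called, at -0.47 (adjusted p = 0.0014) in mp53/Ras and -0.46 (adjusted p = 0.00663) in mp53 cells. The widest gap was between mp53/Ras and Ras cells, at -0.72 (adjusted p = 2.10e-05), while mp53/Ras and mp53 cells differed by -0.02 (adjusted p = 0.925). In Ras cells the difference from bleo/Neo was 0.29 (adjusted p = 0.0646), and without the arrays labelled mp53 10 and Ras 10 it was 0.37 and passed (adjusted p = 0.00872). The non-additive term of Rgs12 was -0.30 ± 0.18 and did not pass (adjusted p = 0.233). One of its dim probe sets, 1457511_at, moved the opposite way, with 0.32 in mp53/Ras against YAMC and 0.24 against Ras cells, and the other, 1429380_at, had no call.

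Rgs10, a small RGS protein acting on Gi-class α subunits, had its highest group mean in mp53 cells (10.60). The difference of Rgs10 between mp53/Ras and mp53 cells did not pass (-0.27, limma adjusted p = 0.0582). Its single probe set, 1416882_at, read between 10.17 and 10.53 on the mp53/Ras arrays (median 10.31), between 10.12 and 11.02 on the Ras arrays (median 10.39) and between 9.71 and 10.98 on the mp53 arrays (median 10.74). Those of bleo/Neo read 9.83 to 10.70 (median 10.22) and those of YAMC 9.54 to 10.31 (median 10.10). All 5 populations overlapped. Rgs10 rose by 0.37 ± 0.12 in mp53 cells against bleo/Neo (adjusted p = 0.0133, and 0.0603 with only those populations in the fit). Against YAMC it rose in mp53 (0.56, adjusted p = 0.000423), Ras (0.40, adjusted p = 0.00611) and mp53/Ras cells (0.29, adjusted p = 0.0345). The combined population was below what the single ones sum to on the log2 scale, with a non-additive term of -0.47 ± 0.17 on the bleo/Neo baseline (adjusted p = 0.0342) and -0.66 on the YAMC baseline (adjusted p = 0.00500). The first of these did not pass without the arrays labelled mp53 10 and Ras 10 (-0.42, adjusted p = 0.0569).

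Rgs3, Rgs4, Rgs5 and Rgs16 belong, like Rgs2, to the R4 subfamily. On 1425296_a_at Rgs3 ran from 8.48 to 8.90 in mp53/Ras (median 8.83), from 8.51 to 8.87 in Ras (median 8.66) and from 8.18 to 9.03 in mp53 cells (median 8.99). It ran from 8.35 to 8.995 in bleo/Neo (median 8.55) and from 8.09 to 8.62 in YAMC cells (median 8.37), so that all populations overlapped. Rgs3 rose by 0.21 ± 0.08 in mp53/Ras (adjusted p = 0.0350) and by 0.24 in mp53 cells (adjusted p = 0.0202, and 0.0896 with only the populations compared in the fit) against bleo/Neo, and by 0.38, 0.42 and 0.26 in mp53/Ras, mp53 and Ras cells against YAMC. The second bright probe set, 1449516_a_at, gave another order: it was higher in mp53/Ras than in mp53 cells by 0.42, and higher in Ras than in bleo/Neo cells by 0.34.

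Rgs16 had 1 bright probe set, 1451452_a_at, with group means of at most 6.55 and no call in any comparison. A dim one, 1426037_a_at, read 5.67 to 6.10 in mp53/Ras and 5.33 to 6.38 in Ras cells, against 5.22 to 5.53 in mp53, 4.97 to 5.67 in bleo/Neo and 4.85 to 5.56 in YAMC cells. On it Rgs16 was higher than in bleo/Neo by 0.45 in mp53/Ras (adjusted p = 5.30e-05) and by 0.53 in Ras cells (adjusted p = 7.07e-06). The third, 1455265_a_at, was called lower in mp53/Ras cells against YAMC (-0.39), so the probe sets of this gene disagree.

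Rgs4 and Rgs5, which mark pericytes and smooth muscle in many tissues, were dim on all 7 probe sets, with group means between 3.99 and 6.43. The largest difference of Rgs4 in mp53/Ras cells was a fall by 0.36 against YAMC on 1416287_at (limma adjusted p = 1.22e-07). The other Rgs4 probe sets did not share this fall. Their means in mp53/Ras and YAMC cells were 4.66 and 4.58 on 1416286_at and 4.25 and 4.17 on 1448285_at. The summed linear intensity of 12 pericyte and smooth muscle markers was 18742.5 to 23869.8 on the mp53/Ras arrays and 31578.9 to 42383.1 on the YAMC arrays. Its part in the difference on 1416287_at was not tested. The brightest markers, Acta2 (13.52 in mp53/Ras, 13.97 in YAMC) and Tagln (12.90 and 13.83), weigh most in this sum. Pdgfrb (8.01 and 7.83), Cspg4 (7.13 and 6.73) and Anpep (6.35 and 5.97) had higher means in mp53/Ras cells, and the other markers had lower ones. Of the 12 markers, 9 were tested as genes, and 1 was called higher and 6 lower in mp53/Ras than in YAMC cells. Of all tested genes, 29.1% were called higher and 28.7% lower there. Rgs5 was called higher in Ras cells than in bleo/Neo on 3 of 4 probe sets, by 0.25 to 0.31 (19.2% of all probe sets were called higher there), and the fourth, 1420942_s_at, had no call.

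**Figure D2:**
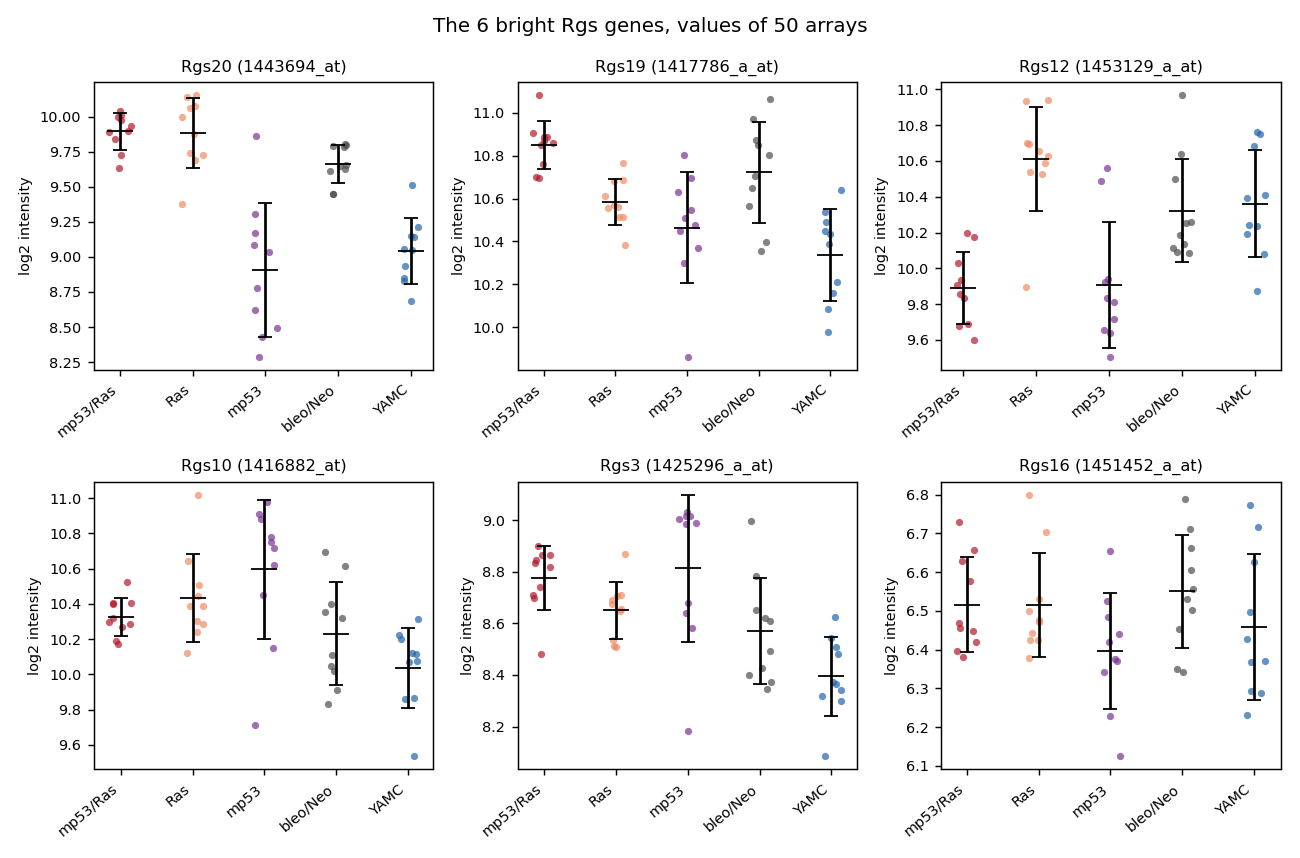
Log2 intensity on each of the 50 arrays for Rgs20, Rgs19, Rgs12, Rgs10, Rgs3 and Rgs16, 1 panel each, by population, with black bars for the mean ± SD. Rgs20 is low in mp53 (mean 8.91) and YAMC cells (9.04), and Rgs12 is low in mp53/Ras (9.89) and mp53 cells (9.91).

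Counted over the 6 tested genes, 1 rose (Rgs3) and 1 fell (Rgs12) in mp53/Ras cells against bleo/Neo, where 26.7% of all tested genes were called higher and 27.9% lower. Their median difference was 0.11, against 0.01 for all tested genes. Without the filter, 9 of the 29 probe sets were higher and 2 were lower, where 24.7% of all probe sets were called higher and 23.5% lower. In mp53 cells against bleo/Neo 2 genes rose (Rgs3 and Rgs10) and 3 fell (Rgs12, Rgs19 and Rgs20), against a background of 16.5% higher and 18.9% lower, with a median of -0.21 against -0.02 for all genes. In Ras cells against bleo/Neo limma called none of the 6, where 19.7% of genes were called higher and 21.4% lower. Of the 6, 1 had an unadjusted p under 0.05, and 2 (Rgs12 and Rgs20) were called without the arrays labelled mp53 10 and Ras 10. No other tool was run. Without a filter 8 of the 29 probe sets were higher and 1 was lower in Ras than in bleo/Neo cells (19.2% and 20% of all).

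Between oncogene populations, 2 of the 6 genes were higher in mp53/Ras than in mp53 cells (Rgs19 and Rgs20) and 0 lower, where 23.3% of genes were called higher and 23.8% lower. Against Ras cells, 1 was higher (Rgs19) and 1 lower (Rgs12) in mp53/Ras cells, where 9.12% were called higher and 12.5% lower. The non-additive term was called for 3 of the 6 with bleo/Neo as control (Rgs10, Rgs19 and Rgs20, with 23.9% of all genes called) and for 1 with YAMC (Rgs10, with 12.4% of all genes called). On the bleo/Neo baseline it was called positive on 7 of the 29 probe sets and negative on 4, with 26.7% of all probe sets called. Over all 29 probe sets, 11 were higher and 1 was lower in mp53/Ras than in mp53 cells (21.3% and 20.8% of all probe sets). Against Ras cells 5 were higher and 5 lower (12.3% and 12.6% of all probe sets).

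Against the parental line 4 of the 6 genes were higher in mp53/Ras cells (Rgs3, Rgs10, Rgs19 and Rgs20) and 1 was lower (Rgs12), where 29.1% of genes were called higher and 28.7% lower. Their median difference was 0.34, against 0.02 for all tested genes. In Ras cells 4 were higher than in YAMC (the same 4 genes) and 0 lower (background 21.5% and 21.2%). In mp53 cells 2 were higher (Rgs3 and Rgs10) and 1 lower (Rgs12; background 11.1% and 11.8%). The vector population itself was above YAMC for Rgs19 and Rgs20 and below it for none of the 6 (background 20% and 17.4%), 3 of the 6 having an unadjusted p under 0.05. These comparisons share the YAMC arrays.

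**Figure D3:**
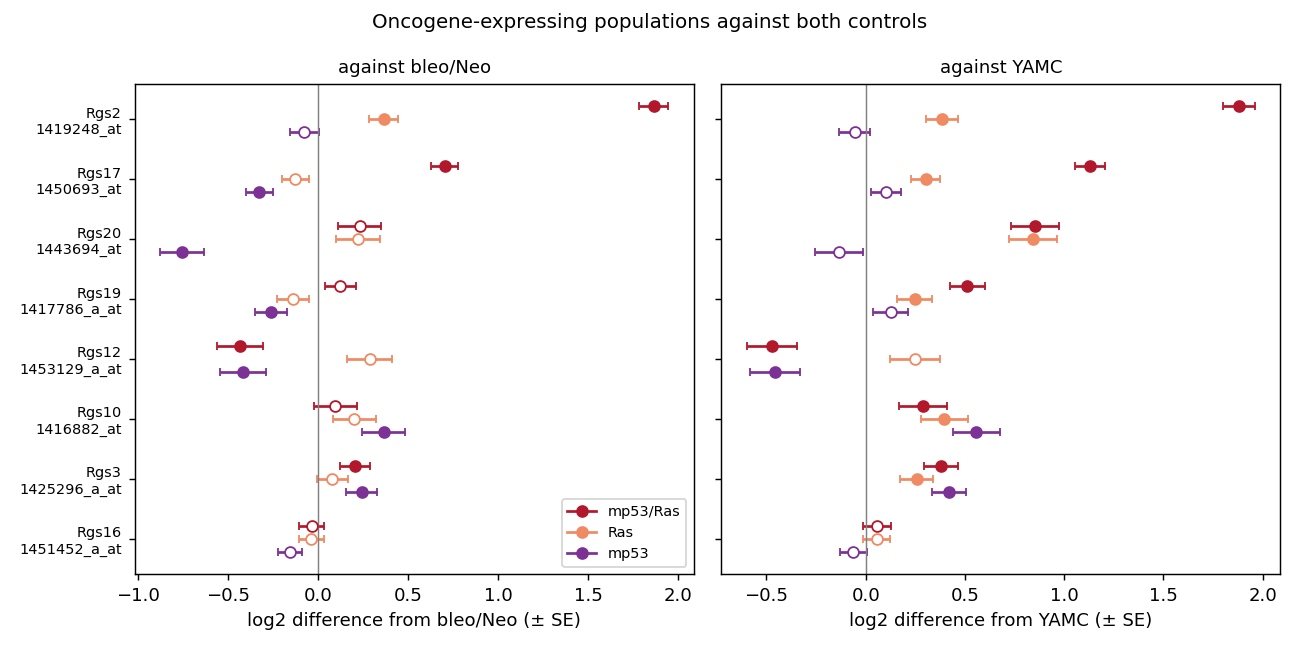
Log2 difference ± SE of Rgs2, Rgs17 and the 6 bright members, 1 probe set each, in mp53/Ras, Ras and mp53 cells, against bleo/Neo (left) and against YAMC (right), with filled symbols for an adjusted p under 0.05 in the fit of all probe sets. Rgs2 and Rgs17 are shown by their probe set with the widest range of group means, and the bright members by that of highest mean. The mp53/Ras symbol of Rgs2 (1.86 on the left and 1.88 on the right) lies farthest from 0, followed by that of Rgs17 on the right (1.13). This order depends in part on that choice of probe sets.

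**Figure D4:**
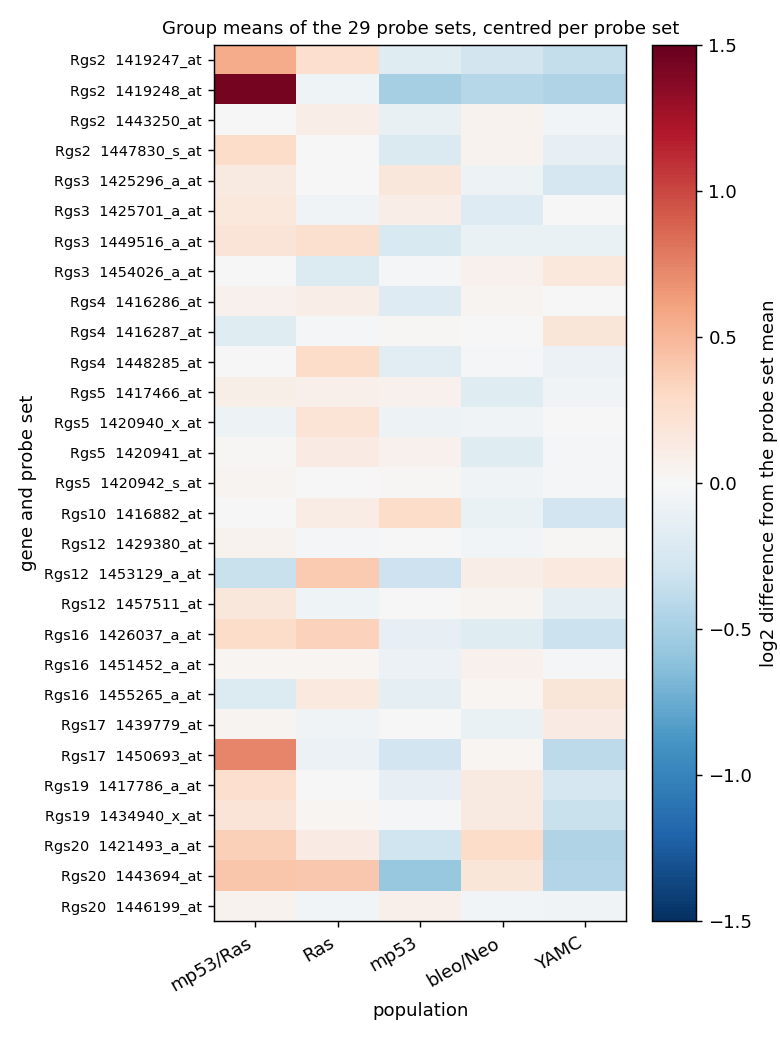
Group mean of each of the 29 probe sets minus the mean of that probe set over the 5 populations, in log2 units. The strongest colours are in the mp53/Ras column for Rgs2 (1419248_at) and Rgs17 (1450693_at), while other probe sets of Rgs2, Rgs12 and Rgs16 are paler or of the opposite sign.

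The G proteins, receptors and effectors on which RGS proteins act were counted in mp53/Ras cells against bleo/Neo, from lists chosen with earlier results of these data known. Genes of these lists that differed at least 2-fold are named with values against both control populations, and the other called genes were named after their values had been seen. In this comparison 26.7% of all tested genes were called higher and 27.9% lower, 7032 of 12883 in all. The share called in either direction was below or near that background in each list except the 2 other RGS genes, both called. The share called higher alone was above 26.7% in several lists, such as the β and γ subunits (5 of 11) and the modulators (4 of 8). All these lists are small. Of 12 tested α subunits 2 were higher (Gnai3 and Gna12) and 3 lower. The 3 lower ones were Gnai1 (-3.45 ± 0.22), which encodes an inhibitory Gi subunit, Gna15 (-1.73 ± 0.22), a promiscuous Gq-class subunit, and Gnal (-1.63 ± 0.15), the stimulatory olfactory subunit. Gnai1 was also 2.54 higher in bleo/Neo than in YAMC cells, and its difference between mp53/Ras and YAMC cells was -0.91. Against YAMC, Gna15 differed by -0.75 and Gnal by -1.08, both called there. Of 11 β and γ subunits 5 were higher (Gnb1, Gnb4, Gnb5, Gng10 and Gng11) and Gng12 was lower. The β subunit Gnb4 was higher by 1.06 ± 0.09 than in bleo/Neo and by 0.26 than in YAMC cells.

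The counts that follow have the same background of 26.7% of all tested genes called higher and 27.9% lower. Of the 8 GoLoco and exchange-factor modulators 4 were higher (Gpsm3, Rasd1, Ric8a and Rap1gap) and Gpsm1 was lower. Gpsm3, a GoLoco protein that binds inactive Gi subunits, was higher by 1.17 ± 0.09 than in bleo/Neo and by 0.58 than in YAMC cells. None of 5 tested receptor kinases and arrestins, which switch off activated receptors, passed the limma test, and 1 of the 5 had an unadjusted p under 0.05. Among 11 adenylyl cyclases and phospholipases C β, 4 were higher (Adcy3, Adcy7, Plcb1 and Plcb4) and 2 lower (Adcy1 and Adcy6). The calcium-stimulated cyclase Adcy1 fell by 2.20 ± 0.17 against bleo/Neo and by 2.69 against YAMC. The phospholipase Plcb4 was higher by 1.08 ± 0.23 than in bleo/Neo cells, while its difference from YAMC cells was -2.16 and that between bleo/Neo and YAMC cells -3.24. The list of receptors for lipids, proteases and peptides also held the adrenergic receptor Adra1b. Of its 14 tested genes 4 were higher (F2r, F2rl2, Ptger1 and Adra1b) and 2 lower (Lpar2 and Ptger4). The thrombin receptor F2r was higher by 1.42 ± 0.09 than in bleo/Neo and by 0.69 than in YAMC cells. Of 2 other RGS genes tested, Rgs9 was higher by 0.22 and Rgs14 fell by 0.47. The genes named here as higher or lower had adjusted p-values under 0.05 in the limma fit.

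For the 3 tested members with the widest range of group means, the genes of most similar pattern were found by the root mean square difference of the centred log2 values over the 50 arrays. For Rgs20 these were Vcpkmt (0.275), Ralgps2 (0.282) and Slc22a23 (0.284). For Rgs12 they were Akr1b8 (0.228), Dcaf4 (0.236) and Cdh26 (0.244), and for Rgs10 Ndufs5 (0.198), Khk (0.198) and 1110038F14Rik (0.203). This measure favours genes of small range: the group means of Ndufs5 span 11.87 to 12.09, against 10.04 to 10.60 for Rgs10. Nor does it require the same direction. Rgs12 was lower in mp53/Ras (9.89) than in bleo/Neo cells (10.32), as were Akr1b8 and Dcaf4, whereas Cdh26 was not (7.65 and 7.57). Ndufs5 averaged 11.97 and 12.04 in these populations, against 10.33 and 10.23 for Rgs10.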

How the data were processed

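Polysomal RNA of 50 samples was hybridised, 5 µg each, to 50 arrays, grouped by the population in the sample titles. The authors deposited 1 linear intensity per probe set and array; RMA is named, without a version, per the submitters' processing notes. The arrays share their lowest and highest value, and percentiles from 1 to 99 examined differ between arrays by at most 0.00726 on the log2 scale, so the deposited intensities had been brought to a common distribution. Values were taken to log2 without an offset. Of 45101 probe sets 64 were blank, 932 had several symbols, 9160 had none, and 34741 of the 34945 with 1 symbol matched the RefSeq gene table.

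The log2 values of all arrays were fitted in limma 3.58.1 (R 4.3.3) by population means, with an intensity trend; the script was tested on simulated data. Adjustment was by Benjamini-Hochberg over 12883 genes in each of 10 comparisons. The non-additive term was also computed on the YAMC baseline. Members and lists were chosen with earlier results of these data known. Named were all members, list genes called and at least 2-fold different in mp53/Ras against bleo/Neo (up to 3 each way), and 3 genes of nearest pattern for each of 3 members. The fit of dim probe sets was added after seeing the data. Alternatives were an offset of 16, no filter, the mean of bright probe sets, median centring, no trend, only the populations compared, a replicate block, and leaving out 2 arrays. The 2 arrays were those labelled mp53 10 and Ras 10. Leaving out the array labelled mp53 8, which lay nearest YAMC, was not tried. No dates or batches were given.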

Additional observations from a re-analysis of the deposited data

Results flagged for a closer look

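In 60 sets of 10 arrays (12 member probe sets in 5 populations), a highest or lowest array stood apart from the other 9 by Dixon's criterion in 8, where chance alone flags about 1 in 20. For Rgs2 these were the mp53/Ras array 3 on 1419248_at at 5.86 (others 6.25 to 6.57), the mp53 array 5 on 1447830_s_at at 5.35 (others 5.76 to 6.05), and on 1419247_at the bleo/Neo array 1 at 4.70 (others 5.09 to 5.47) and the YAMC array 2 at 4.51 (others 4.97 to 5.41). For Rgs3 on 1425296_a_at they were the mp53/Ras array 9 at 8.48 (others 8.70 to 8.90) and the mp53 array 8 at 8.18 (others 8.58 to 9.03). The mp53/Ras array 3 read 6.26 for Rgs5 on 1420940_x_at (others 5.63 to 5.95), and the Ras array 10 read 9.89 for Rgs12 on 1453129_a_at (others 10.53 to 10.94).

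The response to both oncogenes differed from the sum of the single responses, by the non-additive term on the bleo/Neo baseline, for 3 of the 6 genes tested in limma, where 23.9% of all genes were called. The term was 0.76 for Rgs20, 0.52 for Rgs19 and -0.47 for Rgs10. In the fit of all probe sets (26.7% called) it was 1.57 for Rgs2 on 1419248_at and 1.15 for Rgs17 on 1450693_at, the probe sets of widest range of these genes. Among the 29 probe sets 11 were called there, including dim ones with smaller terms of Rgs12 (0.28), Rgs4 (-0.20) and Rgs5 (-0.26 and -0.34). With YAMC in place of bleo/Neo the term stayed past the threshold for Rgs2, Rgs17 and Rgs10 and was 0.14 for both Rgs19 and Rgs20, which did not pass.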

How the results depend on the processing

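Of 669 member values recomputed under an alternative, 642 kept their direction and their side of the threshold, 9 newly passed, 11 no longer passed and 7 changed sign. With no filter the number of members called was 4 (2 with the filter) in mp53/Ras against bleo/Neo, 1 (0) in Ras against bleo/Neo, 4 (2) in bleo/Neo against YAMC, 5 (2) in mp53/Ras against mp53, 5 (2) in mp53/Ras against Ras, 8 (5) in mp53/Ras against YAMC, 7 (4) in Ras against YAMC and 7 (3) for the non-additive term. More genes were tested there, and the share of all genes called in that fit is not given. These counts alone are therefore no result about the members. In the fit of all probe sets without a filter, 24.7% were called higher and 23.5% lower in mp53/Ras against bleo/Neo. In mp53/Ras against mp53 cells these shares were 21.3% and 20.8%, and against Ras cells 12.3% and 12.6%. The non-additive term was called for 26.7%. With the mean of bright probe sets the number was 3 (5) in mp53 against bleo/Neo, 1 (0) in Ras against bleo/Neo and 1 (2) in mp53/Ras against Ras. With only the populations compared it was 2 (5) in mp53 against bleo/Neo, where Rgs3, Rgs10 and Rgs19 were lost (adjusted p = 0.0896, 0.0603 and 0.0733). Without the arrays labelled mp53 10 and Ras 10 it was 2 (0) in Ras against bleo/Neo; Rgs20 in mp53/Ras against bleo/Neo (adjusted p = 0.0437), Rgs10 in mp53/Ras against mp53 (0.0406) and Rgs12 in Ras against YAMC (0.0186) also newly passed, and the non-additive term of Rgs10 (0.0569) and Rgs2 1419247_at in mp53/Ras against Ras (0.0738) no longer did. With YAMC as baseline the non-additive term was called for 1 (3). The share of all genes called is also not given with the mean of bright probe sets, with only the populations compared or without the 2 arrays. Those counts alone are likewise no result about the members. Signs turned only for values of the main fit that were not called: Rgs3 in mp53/Ras against mp53 (0.19 with the mean of bright probe sets, adjusted p = 0.0257), Rgs20 in mp53 against YAMC (0.0063 with that mean), Rgs12 in mp53/Ras against mp53 (0.0032 with median centring and 0.048 without the 2 arrays), Rgs16 in mp53/Ras against bleo/Neo (0.0016 with median centring) and, without the 2 arrays, Rgs16 (-0.0072) and Rgs20 (-0.046) in mp53/Ras against Ras. The cause was not tested.

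Replicate numbers were not taken as pairs: the deviations of 100 same-numbered pairs correlated with a median of 0.19 (-0.52 to 0.75), 67 of them above 0.1, against a median of -0.02 for differently numbered pairs, and 23 of 50 arrays correlated best with their own of the 10 numbers. This is a hint from the data, not the design, that same-numbered arrays share variation. With the replicate block 3 members (2 without it) were called in bleo/Neo against YAMC (Rgs3 added, limma adjusted p = 0.0435). In mp53/Ras against mp53 the number was 3 (2), with Rgs10 added (adjusted p = 0.0358). Counts of the other comparisons were the same. The share of all genes called with the block is not given, so these counts alone are no result about the members. Signals near the lowest values of the table, as for Rgs2, Rgs4, Rgs5 and Rgs17, limit what differences could be measured.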
